A study of Mus musculus with 16 samples.

Results

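The 10 genes described here are core members of the BCL2 family of apoptosis regulators: Bcl2, Bcl2l1, Bcl2l2, Mcl1, Bax, Bak1, Bok, Bbc3, Pmaip1 and Bcl2l11. They were chosen by name and found by gene symbol, and all 10 of them were present among the 55414 gene IDs of the deposited tables. RNA had been sequenced from mouse testes 14 (P14) or 16 days (P16) after birth, in a series on the RNA helicase YTHDC2 in spermatocytes. The groups were control (2 libraries at each stage), Cre control (2 at P14 and 4 at P16) and Ythdc2 conditional knockout (cKO, 3 at each stage). Per the labels, tamoxifen (10 mg per ml) was given to all mice, controls included, on days P12 and P13. Tamoxifen is commonly used to switch on an inducible Cre recombinase. The labels name neither the Cre driver nor the alleles of any group, but the column headers call the control libraries WT. The labels also do not say whether replicates were separate animals. The p-values therefore measure the spread between these libraries, which may be technical.

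BCL2 family proteins decide at the outer mitochondrial membrane whether a cell releases cytochrome c and activates caspases. Anti-apoptotic members (BCL2, BCL-xL from Bcl2l1, BCL-w from Bcl2l2, and MCL1) bind and hold back the effectors BAX and BAK, and BOK is a related effector that is less dependent on them. BH3-only proteins (PUMA from Bbc3, NOXA from Pmaip1, and BIM from Bcl2l11) sense stress and neutralise the anti-apoptotic members or activate the effectors. In the testis the family is known for the early wave of germ cell death around the first round of spermatogenesis, for which Bax is needed, and for germ cell survival, for which Bcl2l1 and, in later stages and Sertoli cells, Bcl2l2 are needed.

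Ribosomal RNA was removed with different kits, which divide the libraries. Controls and cKO libraries 1 and 2 of each stage came from Ribo-Zero depletion, called the first kit here. Cre controls came from NEBNext depletion, called the second kit, as did cKO library 3 at both stages. Within the second kit, per the file headers, Cre control libraries 2, 3 and 4 of P16 came from another sequencing run than the other 5 libraries. All libraries of the first kit came from a run of their own, so a difference between the kits cannot be told apart from one between runs. Reads on genes ranged from 22220565 to 27531529 with the first kit and from 14494867 to 23200252 with the second. Ythdc2 itself was lower in every cKO library than in every control of its table, at 0.198 times the control mean at P16 by the deposited values (521 ± 27.5 against 2638 ± 40.7, SD, n = 2 each). At P14 it stood at 0.329 times the control mean (706 ± 67.1 against 2144 ± 166, SD, n = 2 each). Every member had reads in all 16 libraries, from 71 for Bbc3 to 5477 for Mcl1, and all 10 passed the filter on low values in every comparison.

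Promoter windows are shown for the members that passed the test between cKO and control at P16, which are Bcl2l1, the member that fell, and Bcl2l2, Bok and Bcl2l11, which rose. Each window holds the 250 bases before the most upstream start in the RefSeq table for GRCm38.p6, on the gene's strand, and capitals mark GC boxes (GGGCGG, searched on both strands).
Bcl2l1, chr2:152831729-152831978, minus strand: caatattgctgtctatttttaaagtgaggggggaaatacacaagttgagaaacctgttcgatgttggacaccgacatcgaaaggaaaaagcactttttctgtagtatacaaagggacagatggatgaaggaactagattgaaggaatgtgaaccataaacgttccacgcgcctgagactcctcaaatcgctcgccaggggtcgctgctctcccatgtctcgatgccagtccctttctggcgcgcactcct
Bcl2l2, chr14:54883175-54883424, plus strand: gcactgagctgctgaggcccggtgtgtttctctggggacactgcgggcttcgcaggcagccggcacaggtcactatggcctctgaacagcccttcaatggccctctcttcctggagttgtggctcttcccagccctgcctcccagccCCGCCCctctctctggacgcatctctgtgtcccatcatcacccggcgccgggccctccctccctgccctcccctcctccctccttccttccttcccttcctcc
Bok, chr1:93685325-93685574, plus strand: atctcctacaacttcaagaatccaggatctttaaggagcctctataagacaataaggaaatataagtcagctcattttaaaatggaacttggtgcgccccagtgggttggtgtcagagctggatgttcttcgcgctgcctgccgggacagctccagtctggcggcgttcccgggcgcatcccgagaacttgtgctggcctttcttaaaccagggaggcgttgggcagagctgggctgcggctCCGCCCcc
Bcl2l11, chr2:128125788-128126037, plus strand: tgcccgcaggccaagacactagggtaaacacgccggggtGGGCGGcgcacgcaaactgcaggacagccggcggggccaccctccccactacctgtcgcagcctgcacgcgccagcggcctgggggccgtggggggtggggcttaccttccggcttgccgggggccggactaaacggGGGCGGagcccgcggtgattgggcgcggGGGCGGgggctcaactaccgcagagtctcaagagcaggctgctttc
The Bcl2l1 window held 0 GC boxes and 47.6% GC, the lowest GC content among the 9 members matched in the table. The Bcl2l11 window held 3 GC boxes and 72% GC, and those of Bcl2l2 (66% GC) and Bok (55.2% GC) held 1 each. Of 32851 promoter windows of the same length, 32.7% held a GC box, and the median GC content was 52.4%. The window of Bcl2 held 7 GC boxes, that of Bbc3 held 5, that of Bax 2, that of Mcl1 1 and that of Bak1 0. An E-box (CACGTG), found in 6.02% of all windows, occurred among the members only before Bax. The p53 half-site, found in 7.13% of all windows, also matched once among the members, before Bax. A CCAAT box (CCAAT), found in 33.9% of all windows, occurred only before Bcl2l11. No TATA box (TATAAA, 12.4% of all windows), MYB core (CNGTTA, 19.8%) or cAMP response element (TGACGTCA, 1.55%) was found in the 9 windows. Bcl2l1 has 3 starts in the table and Bcl2l11 has 2, so these windows describe 1 start each. All motifs were searched on both strands, and a match is a description of the letters only.

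The members differed widely in level. Levels between genes are given as RPKM, the recovered reads per 1000000 gene reads (RPM) divided by kilobases of exon. Mcl1 was highest with both kits, at 56.2 ± 2.20 with the first (SD, n = 8) and 45.1 ± 2.15 with the second (SD, n = 8). With the first kit Bcl2l1 followed at 18.8 ± 2.70, then Bok at 16.3 ± 1.81, Bcl2l2 at 12.5 ± 1.01 and Bax at 9.58 ± 1.18 (SD, n = 8 each). In this order of 4, each member overlapped the next over the libraries, so neighbours were not separated. The range of Bcl2l1 lay above those of Bcl2l2 and Bax, and that of Bok above that of Bax. Pmaip1 stood at 5.35 RPKM, Bak1 at 4.26, Bcl2l11 at 3.67 and Bbc3 between 1.68 and 3.12, and Bcl2 was lowest at 0.744 ± 0.066 (SD, n = 8). The second kit gave the same highest and lowest member, with Bcl2 at 0.732 ± 0.139 (SD, n = 8). There Bcl2l1 stood at 25.4 ± 4.54, Bok at 17.3 ± 2.03, Bax at 12.4 ± 1.46, Bcl2l2 at 7.37 ± 0.912 and Bak1 at 7.27 ± 0.658 (SD, n = 8 each), so Bcl2l2 and Bax changed places between the kits. The top of this order depends on the length used: per kilobase of the longest transcript, Bcl2l1 stood at 45.4 with the second kit, beside 45.1 for Mcl1, with overlapping ranges.

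**Figure D1:**
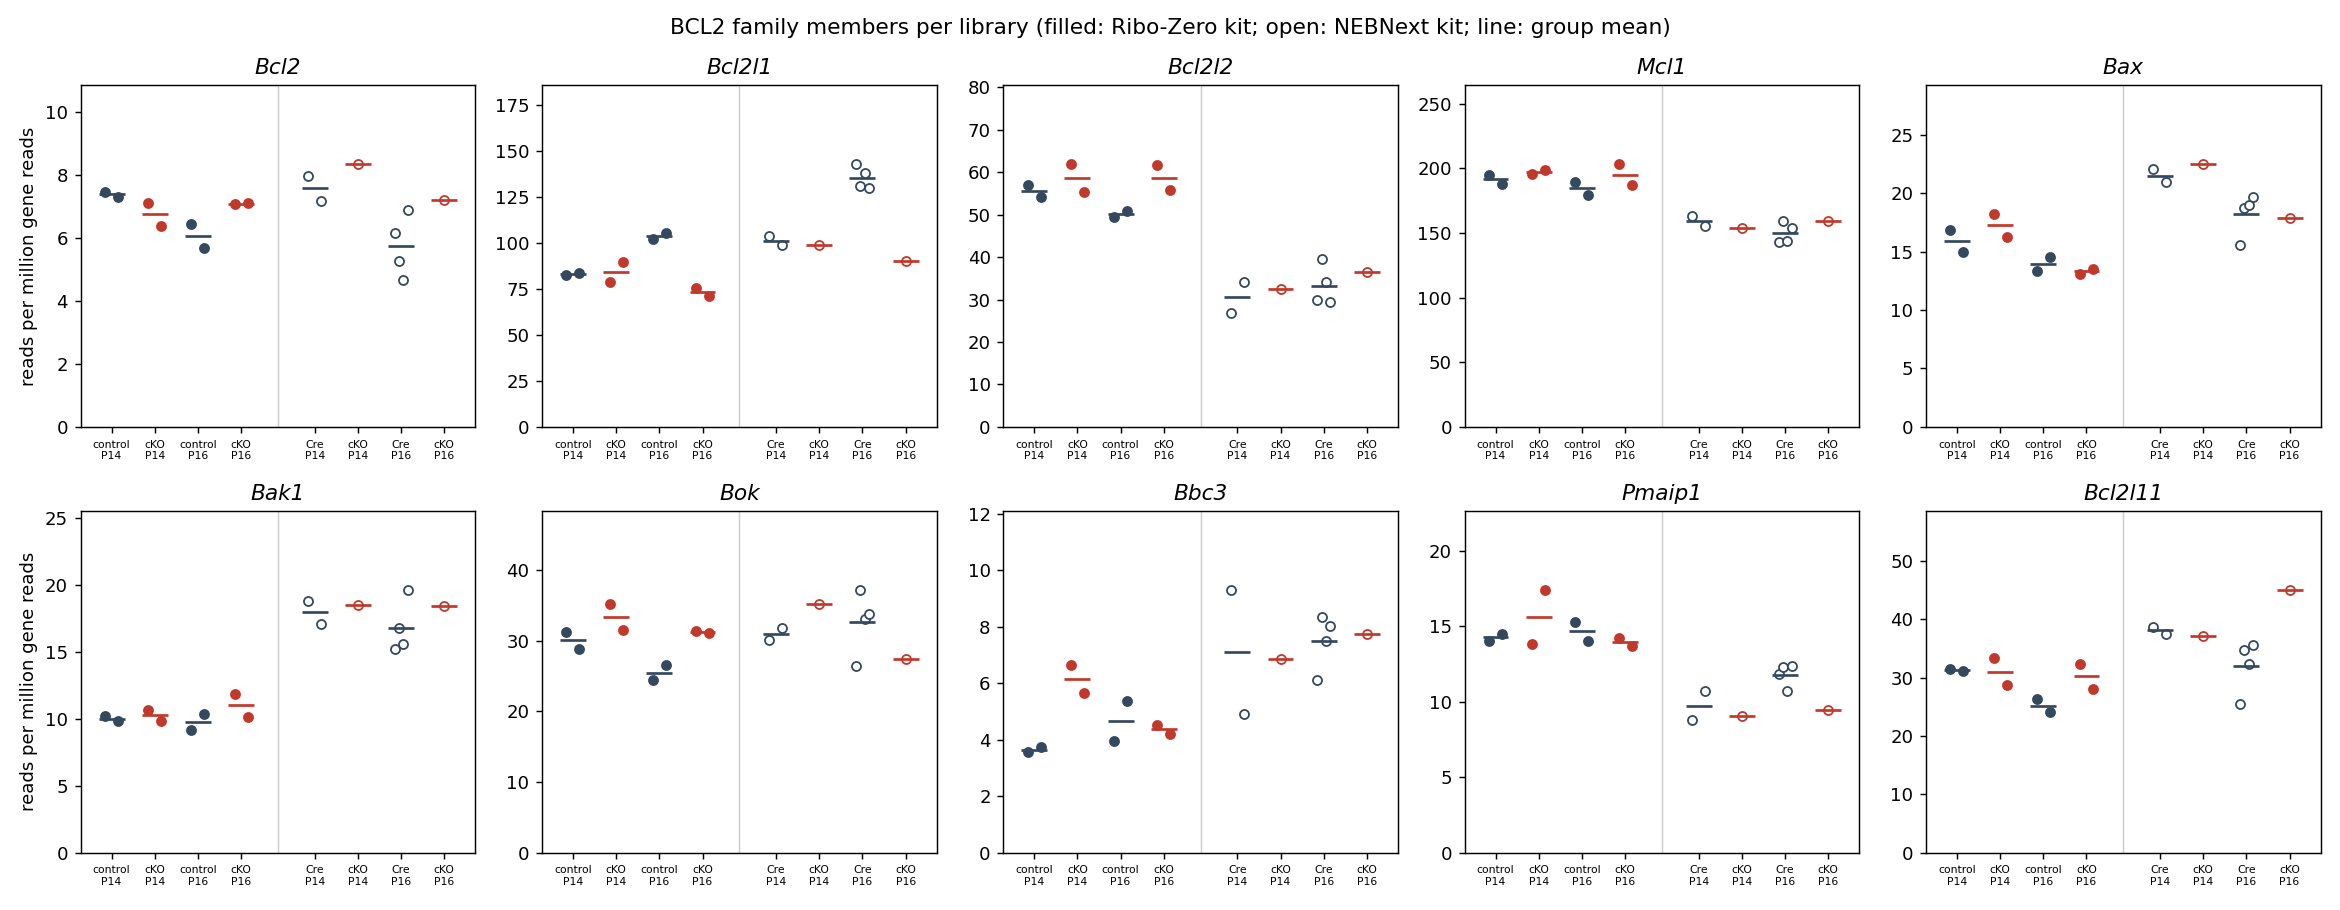
Reads per 1000000 gene reads (RPM, vertical axis, from 0) of each member in all 16 libraries, by group and stage on the horizontal axis. Points are libraries, lines are group means, cKO is red, and filled points are the first (Ribo-Zero) kit and open points the second (NEBNext) kit. Bcl2l1 is the panel in which controls of both kits stand higher at P16 than at P14 while the cKO libraries do not.

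The comparison of cKO with control at P16 used 2 libraries per group, all of the first kit, and gave 1 member that fell and 3 that rose. Bcl2l1 fell to 0.706 times the control mean, and Bok, Bcl2l11 and Bcl2l2 rose to 1.23, 1.20 and 1.18 times it. The test was limma on log2(value + 1) of the deposited normalized counts, with Benjamini-Hochberg adjustment over 17986 genes and a call at an adjusted p under 0.05. At this stage 38.6% of all genes tested were called, 18.6% higher and 19.9% lower, so 4 called members of 10 is a share near the background. The members' median log2 change was 0.13, against -0.00050 over all genes tested. With 2 libraries per group, values can fail to overlap without a true difference, and the share of all genes that did so was not counted. In whole testis, fewer cells of a type and less RNA per cell cannot be told apart.

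Among the anti-apoptotic members, Bcl2l1 was the one that fell. Its deposited values at P16 were 2657 and 2745 in the controls and 1967 and 1849 in cKO. Both cKO values lay below both control values. On average, control and cKO stood at 2701 ± 62.2 and 1908 ± 83.7 (SD, n = 2 each), or -0.50 on the log2 scale (SE 0.051, adjusted p 1.24e-05 by limma). It stayed called in all 14 alternatives, at -0.46 to -0.55.

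Bcl2l2, which encodes BCL-w, moved the other way. Its values were 1282 and 1326 in the controls and 1612 and 1453 in cKO, with no overlap. The log2 change was 0.23 (SE 0.061, limma adjusted p 0.00966). The adjusted p was 0.0510 without cKO library 1 and 0.0848 without control library 1, and 0.238 with all 9 P16 libraries fitted and the kit as covariate, where the change was 0.19. Bcl2l2 shares 594 bases of exon (13.3%) with Gm20521 on the same strand. How the counting treated reads on shared bases, which may have been left out, is not given in the sources used here.

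Bcl2 and Mcl1 were not called at P16. Bcl2, the least expressed member, stood at 167 and 147 in control libraries and at 184 and 185 in cKO. The groups did not overlap, and the log2 change was 0.23 (SE 0.124, limma adjusted p 0.158). Mcl1, the most expressed member and a protein of very short half-life, stood at 4920 and 4669 in control libraries and at 5315 and 4871 in cKO. These groups overlapped and differed by 0.09 on the log2 scale (SE 0.050, adjusted p 0.199 by limma). Mcl1 was called higher when cKO library 2 was left out (0.15, adjusted p 0.00715).

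Of the effectors, Bok rose and Bax and Bak1 were not called at P16. Bok stood at 635 and 691 in control libraries and at 819 and 812 in cKO, so all cKO values lay above the controls. The log2 change was 0.30 (SE 0.069, limma adjusted p 0.00423). The call ended without control library 1 (adjusted p 0.0663). With all 9 P16 libraries fitted and the kit as covariate the change was 0.06 (adjusted p 0.813). Bax, whose protein forms the pore in the outer mitochondrial membrane, stood at 347 and 378 in control libraries and at 343 and 352 in cKO, which overlapped (log2 change -0.06, SE 0.090, limma adjusted p 0.631). Bak1, which encodes the other pore former, stood at 238 and 270 in control libraries and at 311 and 264 in cKO, which also overlapped (log2 change 0.17, SE 0.113, limma adjusted p 0.249). Bak1 overlaps Ggnbp1 on the other strand in up to 18.2% of its exon bases and Bax overlaps Gm45808 on the same strand in 12.2%, and whether the counting used strand is not given in the sources used here.

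Of the BH3-only members, Bcl2l11 rose at P16 while Bbc3 and Pmaip1 were not called. Bcl2l11, which encodes BIM, stood at 683 and 628 in control libraries and at 846 and 731 in cKO, with no overlap. The log2 change was 0.26 (SE 0.081, limma adjusted p 0.0208). The call ended without cKO library 1 (adjusted p 0.147), without control library 2 (0.157), with DESeq2 on the recovered reads (0.0546) and without the filter on low values (0.0764). Bbc3, which encodes PUMA, a target of p53, stood at 103 and 140 in control libraries and at 118 and 110 in cKO (log2 change -0.07, SE 0.167, limma adjusted p 0.764). Pmaip1, which encodes NOXA, a partner of MCL1, stood at 397 and 365 in control libraries and at 372 and 356 in cKO (log2 change -0.06, SE 0.088, limma adjusted p 0.602). Both overlapped between the groups.

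**Figure D2:**
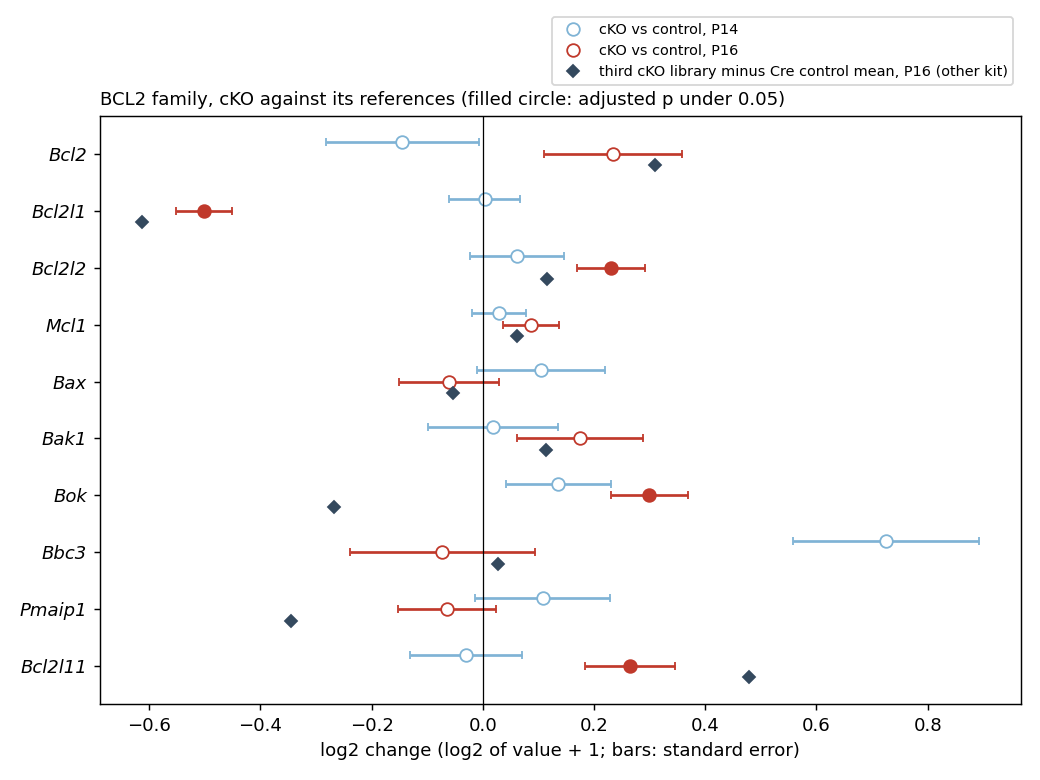
Log2 change of each member (horizontal axis) in cKO against control at P14 (blue) and P16 (red), with standard errors, and of the third cKO library against the Cre control mean at P16 (diamonds, second kit, no error bar). Filled circles have an adjusted p under 0.05: Bcl2l1 at -0.50 lies to the left and Bcl2l2, Bcl2l11 and Bok at 0.23 to 0.30 lie to the right. The diamond of Bcl2l1 lies at -0.61.

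Markers of several testis cell types moved at P16 in the same comparison. Of 10 Sertoli cell markers 7 rose and 0 fell (median log2 change 0.28), and their summed level was 3731 to 3953 RPM in the controls and 4497 to 4972 in cKO. Of 7 macrophage markers 6 rose (median 0.66), with sums of 99.8 to 104 and 134 to 138. Of 8 markers of early meiotic prophase 7 fell (median -0.61), with sums of 1764 to 1846 in the controls and 1365 to 1498 in cKO, and of 8 spermatogonial markers 7 fell (median -0.42), with sums of 686 to 693 and 505 to 517. Of 8 markers of pachytene and later cells 5 rose and 0 fell (median 0.20), with sums of 1756 to 1771 and 1908 to 2124. Of 5 general germ cell markers 3 fell (median -0.17), and 3 of 6 Leydig cell markers tested, 1 of 5 peritubular and 2 of 4 endothelial markers rose. Of all markers listed, only 1, a Leydig cell marker, was at 0 in all libraries of a group, and the part of these markers in the members' changes was not tested.

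At P14, 2 days earlier, cKO and control were compared in the same way, and 0 members were called by limma, edgeR or DESeq2. Over all genes 0.00579% were called, which is Ythdc2 alone. At an unadjusted p under 0.05, 1 of the 10 members passed, Bbc3, against 2.37% of all genes. Bbc3 stood at 86.1 and 89.9 in control libraries and at 161 and 132 in cKO, and the groups did not overlap. On average, control and cKO stood at 88.0 ± 2.70 and 147 ± 20.3 (SD, n = 2 each), a log2 change of 0.72 (SE 0.167, limma p 0.00394, adjusted p 0.9997), which fails the correction. With the second kit, Bbc3 at P14 stood at 173 and 87.4 in the Cre controls and at 121 in the third cKO library, which lies between them.

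The other members had unadjusted p-values above 0.05 at P14. Bcl2l1 stood at 1994 and 2015 in control libraries and at 1917 and 2106 in cKO (log2 change 0.0036, SE 0.064). Bcl2l11 stood at 759 and 751 in control libraries and at 811 and 674 in cKO (log2 change -0.03). Mcl1 stood at 4692 and 4532 in control libraries and at 4745 and 4660 in cKO (log2 change 0.03, SE 0.049). For these 3 members the cKO values straddled or overlapped those of the controls. The log2 changes of Bcl2, Bcl2l2, Bax, Bak1, Bok and Pmaip1 ranged from -0.14 to 0.14. Among them the groups did not overlap for Bcl2 alone (180 and 176 in the controls, 173 and 149 in cKO). At P14, too, the share of all genes without overlap was not counted.

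The cKO effect was then compared between the stages in 1 interaction model of the 8 first-kit libraries, with limma on log2 CPM, which is RPM after TMM scaling, of the recovered reads. Only Bcl2l1 was called among the members, at -0.49 (SE 0.081, limma adjusted p 0.00962), and 7.39% of 18581 genes were called. Ythdc2 itself was also called, at -0.72 (SE 0.115, limma adjusted p 0.00822), so its loss was deeper at P16. Stage, time since tamoxifen and depth of the Ythdc2 loss move together here and cannot be told apart. Bcl2l1 stood at 82.6 and 83.7 RPM in the P14 controls, at 78.9 and 89.7 in P14 cKO, at 102 and 105 in the P16 controls and at 75.3 and 70.9 in P16 cKO. The groups thus overlapped at P14 and were apart at P16. The call ended without control P16 library 2 (adjusted p 0.0585). Bbc3 had an interaction of -0.78 (SE 0.249, limma adjusted p 0.0865), Bcl2 of 0.39 (adjusted p 0.203) and Bcl2l11 of 0.31 (adjusted p 0.206). Bcl2l11 was called when cKO P14 library 1 was left out (0.42, adjusted p 0.0429).

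The same contrast in the 8 libraries of the second kit, which share no library with the first, gave a difference of -0.50 for Bcl2l1, and of -0.58 with the sequencing run as a covariate. Each stage has a lone cKO library there, so this is a value without a replicate check of the cKO effect, and it was computed after the data had been seen. With those libraries taken to vary like the Cre controls, limma called 0 of 18975 genes, with 710 at an unadjusted p under 0.05. Bcl2l1 stood at 104 and 98.7 RPM in the P14 Cre controls and at 98.9 in P14 cKO. It stood at 143, 131, 138 and 130 in the P16 Cre controls and at 90.1 in P16 cKO. On this scale the P14 cKO library lay within the range of its controls and the P16 cKO library below it. The corresponding differences were 0.59 for Bcl2l11 and -0.38 for Bok, and 0.91 and -0.08 with the run as a covariate. With the run in the model, the P16 side rests on the third cKO library and Cre control library 1.

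Stage itself was compared within each group. In controls of the first kit Bcl2l1 rose from P14 to P16, from 82.7 ± 0.450 to 104 ± 2.09 CPM (SD, n = 2 each), or 0.32 on the log2 scale (SE 0.057, adjusted p 0.00362 by limma), and it was the only member called where 20% of all genes were. In Cre controls Bcl2l1 rose from 99.6 ± 4.69 (SD, n = 2) to 136 ± 6.38 CPM (SD, n = 4), or 0.43 on the log2 scale (SE 0.089, adjusted p 0.0113 by limma), and it was again the only member called, with 11.8% of all genes called. That call ended without Cre control P14 library 1 (adjusted p 0.0765), P14 library 2 (0.0633) or P16 library 3 (0.0548). With the sequencing run as a covariate Bcl2l1 was called at 0.51 (adjusted p 0.0276), and Bcl2l11 was called lower, at -0.57 (adjusted p 0.0450). That stage term rests on 1 P16 library, Cre control library 1, which shares a run with the 2 P14 libraries. In it Bcl2l11 was at 25.5 RPM, against 32.3 to 35.5 in the other P16 Cre controls. In cKO, Bcl2l1 changed by -0.17 (SE 0.057, limma adjusted p 0.0510). Markers of pachytene and later cells moved with stage in all 3 groups: 7 of 8 rose in controls (median 1.44), in Cre controls (median 2.31) and in cKO (median 1.62), and their part in the rise of Bcl2l1 was not tested.

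Bax fell with stage in cKO, where 29.8% of all genes were called, from 17.3 ± 1.67 to 13.4 ± 0.286 CPM (SD, n = 2 each), or -0.34 on the log2 scale (SE 0.105, adjusted p 0.0365 by limma). The corresponding change was -0.19 (adjusted p 0.248) in controls and -0.23 (adjusted p 0.334) in Cre controls, and the interaction for Bax was -0.15 (SE 0.148, adjusted p 0.570). The call in cKO ended without cKO P14 library 1 (adjusted p 0.143), cKO P16 library 1 (0.127), cKO P16 library 2 (0.0941) or control P16 library 1 (0.0539). In controls Bcl2l11 changed by -0.31 (adjusted p 0.0522) and Bok by -0.23 (adjusted p 0.0842). Bcl2l11 fell at an adjusted p of 0.0157 and 0.0127, and Bok at 0.0354 and 0.0352, when cKO P14 library 1 or 2 was left out of the shared fit.

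The tables with Cre controls mix the kits, since cKO libraries 1 and 2 came from the first kit and every Cre control from the second. They hold the same cKO libraries 1 and 2 as the tables with controls, so the calls of the 2 kinds of table are not independent. At P16, 1 member was called, where 9.07% of all genes were. Bcl2l1 stood at 2827, 2596, 2785 and 2562 in the Cre controls and at 1611, 1524 and 1758 in cKO. Every cKO library lay below every Cre control, and the share of all genes without overlap was not counted. On average, control and cKO stood at 2693 ± 133 (SD, n = 4) and 1631 ± 118 (SD, n = 3), or -0.72 on the log2 scale (SE 0.081, adjusted p 0.0367 by limma). The call ended with the kit as a covariate (-0.61, adjusted p 0.0939) and with the run as a covariate (-0.69, adjusted p 0.1003). It also ended without any single library other than the third cKO library (adjusted p 0.0720 to 0.191, at -0.68 to -0.75). These losses were not particular to Bcl2l1. The kit fit called 1 of 19200 genes and the run fit 0. Each fit lacking a library that ended the call left 0 genes called.

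The third cKO library can, inside the second kit, be set against the Cre controls without a difference in kit, as a single library with no test. At P16 its Bcl2l1 value of 1758 was 65.3% of the Cre control mean, a log2 difference of -0.61, and lay below the Cre control range, as did 30.0% of all genes tested. Bcl2l11 stood at 880 in this library and at 503 to 702 in the Cre controls, which is 138% of their mean and above their range, as for 24.0% of all genes. Bcl2 stood at 140 against 94.1 to 136, also above the range. Pmaip1 stood at 184 against 216 to 244, below the range. Bok stood at 535 against 522 to 739, or 82.4% of the mean and within the range. Bcl2l2 (107.6%), Mcl1 (104%), Bax (95.9%), Bak1 (107.7%) and Bbc3 (101%) lay within the range. On the sequencing run of the third cKO library there is 1 Cre control of P16, library 1. Beside it, Bcl2l1 stood at 1758 in cKO and 2827 in the Cre control, and Bcl2l11 at 880 and 503. Bok stood at 535 in cKO and 522 in this Cre control, while the Cre controls of the other run stood at 667 to 739. Within the run this sets 1 library against 1, and whether the low position of Bok goes with the run was not tested. With all 9 P16 libraries fitted and the kit as covariate, Bcl2l1 changed by -0.54 (limma adjusted p 0.00142) and Bcl2l11 by 0.37 (adjusted p 0.0654).

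Marker sums of the third cKO library at P16 were 5995 RPM for Sertoli cells, above the 4647 to 5654 of the Cre controls, and its macrophage sum of 141 lay above their 98.0 to 125. The sum of 1581 for pachytene and later cells lay within their 1484 to 2767, with 2 of 8 markers above the Cre control mean (median log2 difference -0.42), whereas with the first kit 5 had risen and 0 fallen. The early meiotic sum of 934 lay within their 921 to 1360, with 1 of 8 markers above the mean (median -0.29), and Sycp1, Sycp2, Prdm9, Mei1 and Rad21l each below the Cre control range. The spermatogonial sum of 735 lay within the 605 to 791 of the Cre controls. Of 8 spermatogonial markers, 5 lay above the Cre control mean (median log2 difference 0.07), whereas with the first kit 7 had fallen. The part of these sums and markers in the members' values was not tested.

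In the P14 table with Cre controls 0% of 18196 genes were called, and 0 of the members by limma, edgeR or DESeq2. At an unadjusted p under 0.05, 3.87% of all genes and 0 members passed. Bcl2l1 stood at 1921 and 1762 in the Cre controls and at 1552, 1714 and 1743 in cKO, without overlap between the groups. It differed by -0.14 on the log2 scale (SE 0.118, adjusted p 0.559 by limma). The third cKO library lay just below both Cre controls on this scale, and between them in RPM. For Bok (log2 change 0.18) and Bcl2l11 (-0.17) the groups did not overlap either, and the share of all genes without overlap was not counted. Bcl2l2 differed between the kits, which also differ in sequencing run. It stood at 499 and 611 in the Cre controls, at 1218 and 1055 in cKO libraries 1 and 2, and at 574 in the third cKO library. The value of the library of the same kit thus lay within the Cre controls, and both of the other kit far above them.

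**Figure D3:**
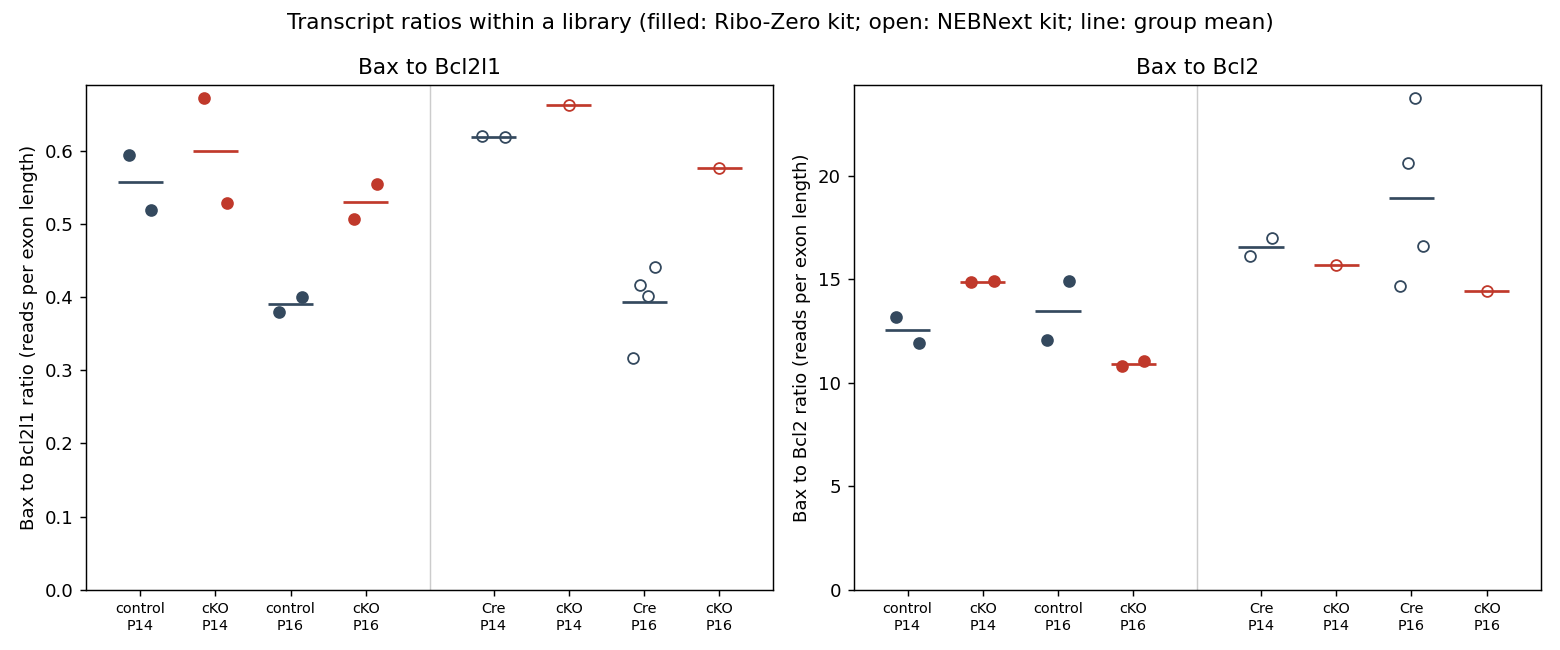
Ratio of Bax to Bcl2l1 (left) and of Bax to Bcl2 (right), each per kilobase of exon, in all 16 libraries, by group and stage on the horizontal axis, with axes from 0. The Bax to Bcl2l1 ratio is lowest in P16 controls and P16 Cre controls, at 0.317 to 0.442, and the P16 cKO libraries stand at 0.507 to 0.576.

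The ratio of Bax to Bcl2l1 within a library sets an effector against the anti-apoptotic member that moved, and it is given without a test because Bcl2l1 was picked out by its change. It was 0.594 and 0.520 in P14 controls and 0.672 and 0.528 in P14 cKO, which overlap. It was 0.380 and 0.401 in P16 controls and 0.507 and 0.554 in P16 cKO, with no overlap. With the second kit it was 0.620 and 0.618 in P14 Cre controls, 0.663 in P14 cKO, 0.317 to 0.442 in the 4 P16 Cre controls and 0.576 in P16 cKO. The ratio of Bax to Bcl2, a widely quoted pair, behaved otherwise: at P16 it was 12.1 and 14.9 in controls and 10.8 and 11.0 in cKO, and with the second kit 14.7 to 23.7 in Cre controls and 14.4 in cKO. The ratio of Bcl2l1 to Bcl2l2 was 2.02 and 2.01 in P16 controls and 1.19 and 1.24 in P16 cKO, while at P14 both controls lay within the cKO values of 1.24 and 1.58. With the second kit at P16 it was 3.23 to 4.65 in Cre controls and 2.41 in cKO. Summed effector and BH3-only members over summed anti-apoptotic members gave 0.406 and 0.441 in P16 controls and 0.460 and 0.482 in P16 cKO. With the second kit this ratio was 0.509 to 0.642 in P16 Cre controls and 0.619 in P16 cKO, within their range. Without Mcl1 it was 1.065 and 1.102 in P16 controls and 1.344 and 1.399 in P16 cKO. With the second kit that was 1.061 to 1.453 in P16 Cre controls and 1.629 in P16 cKO. All these are ratios of transcripts and not of proteins.

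The other genes of the pathway were taken from 8 lists of 50 genes, of which 42 were tested in cKO against control at P16, and 13 were higher and 11 lower, beside 18.6% of all genes called higher and 19.9% lower. Of 7 other BH3-only genes 0 rose and 1 fell (median log2 change 0.02): Hrk, which encodes a BH3-only protein known from neurons, fell from 228 ± 35.8 to 139 ± 17.0 (SD, n = 2 each), or -0.70 on the log2 scale (SE 0.141, adjusted p 0.00182 by limma). In the third cKO library Hrk stood at 120, within the Cre controls at 74.0 to 121. Of the less studied relatives, Bcl2l12 rose by 0.25 and Bcl2l13 was not called, while Bcl2l14 and Bcl2l15 were too low to test. Bcl2l12 overlaps Irf3 and an antisense gene. The other anti-apoptotic genes, Bcl2a1a, Bcl2a1b, Bcl2a1d and Bcl2l10, were all too low to test, with mean values of at most 2.46.

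Downstream of the family, 3 of 9 apoptosome and caspase genes rose and 2 fell (median -0.06). Casp2, which encodes an initiator caspase, fell from 1610 ± 41.4 to 1158 ± 34.9 (SD, n = 2 each), or -0.47 on the log2 scale (SE 0.055, adjusted p 3.7e-05 by limma). The genes of both forms of cytochrome c rose, the testis form Cyct by 0.43 (SE 0.081) and the somatic form Cycs by 0.35 (SE 0.055). Of 6 caspase inhibitors and their antagonists 3 rose and 2 fell (median 0.06), among them Birc3, an inhibitor of apoptosis, at 0.48, Birc5, which encodes survivin, at -0.25 and Htra2, a mitochondrial protease gene, at -0.22. Htra2 overlaps Aup1 and Loxl3 on the other strand. Of 7 death receptor genes tested 3 rose and 1 fell (median 0.29), among them the receptor gene Tnfrsf10b at -0.46, the kinase gene Ripk1 at 0.33 and Cflar, which encodes the caspase-8 regulator FLIP, at 0.33.

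Upstream of the family, 2 of 7 regulators of BH3-only genes rose and 2 fell (median 0.07). Trp63, a p53 relative, rose by 0.50 (SE 0.124), Foxo3, a transcription factor that acts on Bcl2l11, rose by 0.29 (SE 0.051), and the checkpoint kinase gene Chek2 changed by -0.32 (SE 0.118, limma adjusted p 0.0472). Trp53 itself was not called (0.07, SE 0.066). Of 4 genes for MCL1 turnover 1 rose and 3 fell (median -0.14): the ubiquitin ligase genes Fbxw7 and Btrc fell by 0.37 and 0.17 on the log2 scale, and the deubiquitinase gene Usp9x rose by 0.18. Against Cre controls at P16, 3 of 43 pathway genes tested were called, Usp9x at 0.51, Xiap at 0.58 and Mdm2 at -0.41, and these include the difference in kit. In the third cKO library alone, Usp9x stood at 147% of the Cre control mean, Xiap at 122% and Mdm2 at 76.4%, each outside the Cre control range. In the interaction between stage and genotype, Casp2 (-0.34, limma adjusted p 0.0454) and Fbxw7 (-0.35, adjusted p 0.0246) were called among 42 pathway genes tested.

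**Figure D4:**
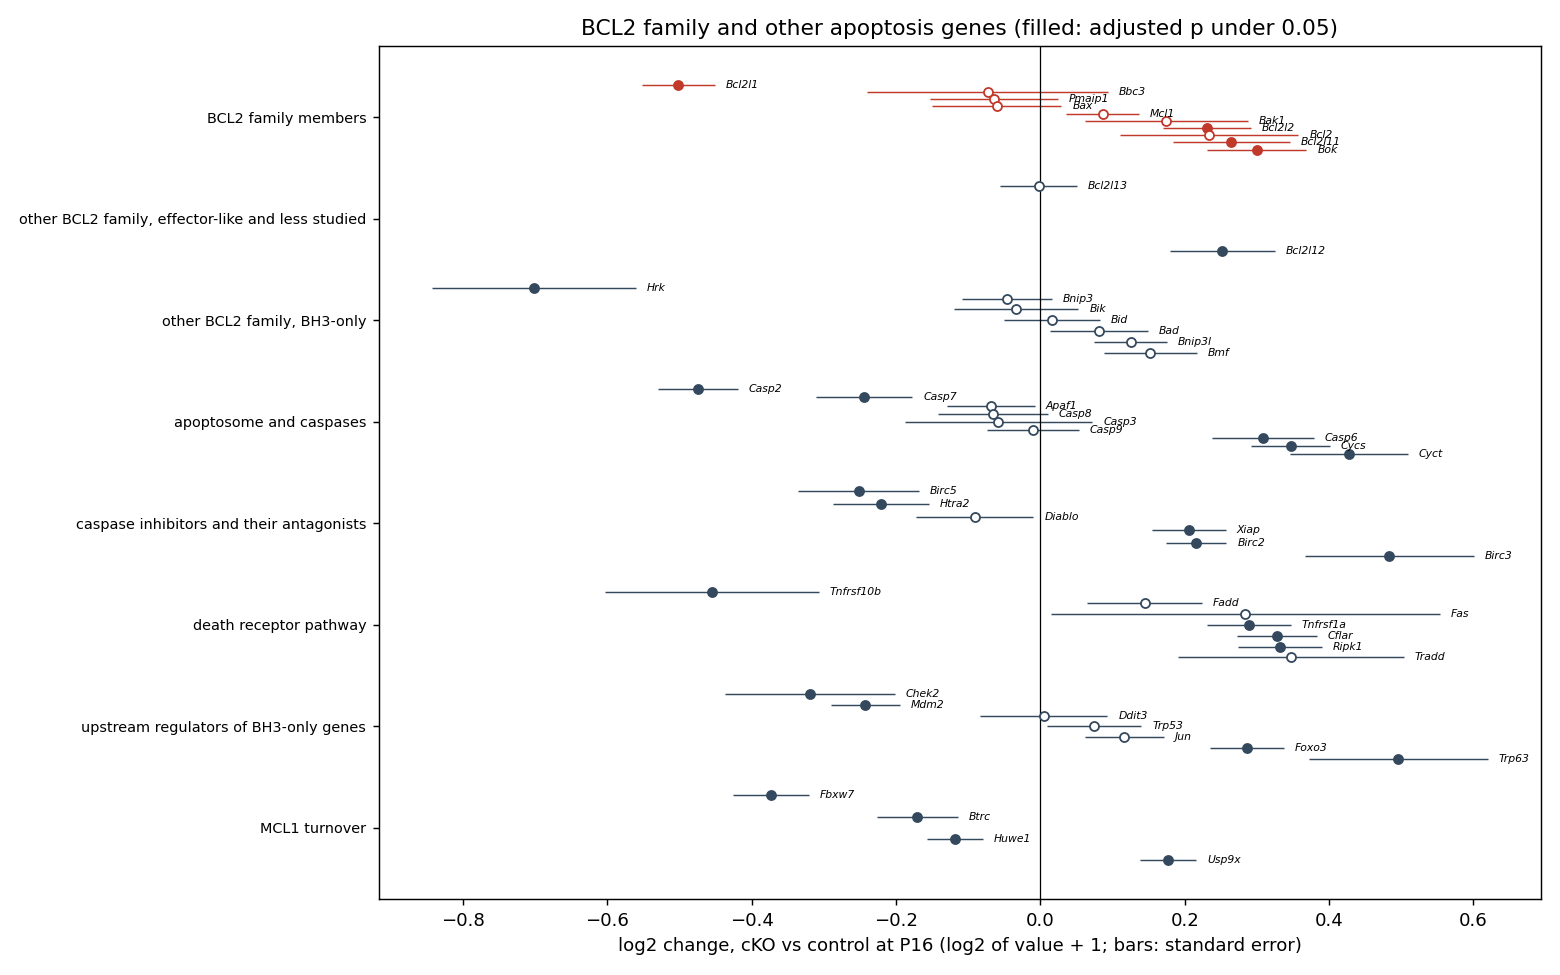
Log2 change in cKO against control at P16 (horizontal axis, bars are standard errors) of the 10 members (red) and of the other apoptosis genes tested (dark), grouped by list on the vertical axis. Filled points have an adjusted p under 0.05, and calls lie on both sides of 0 in most lists, from Hrk at -0.70 to Trp63 at 0.50.

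Genes with the pattern most like that of each member called at P16 were sought among 16104 genes, by Pearson's r over the 16 libraries of log2 CPM after the mean of each kit was subtracted. The libraries share stage and genotype groups, so r is a description. For Bcl2l1 the nearest were Bbs1, a gene of the BBSome in cilia (r 0.972), and 9030407P20Rik (r 0.958). For Bcl2l2 they were Rps6ka2, a ribosomal S6 kinase gene (r 0.950), and Inha, the inhibin alpha gene of Sertoli cells (r 0.948). For Bok they were Vasp, an actin regulator (r 0.864), and Mgat4b (r 0.862), and for Bcl2l11 they were Mospd1 (r 0.915) and Sptbn1, a spectrin gene (r 0.913). In cKO against control at P16 these genes had log2 changes of -0.61 for Bbs1 and -0.49 for 9030407P20Rik, and of 0.47 for Rps6ka2, 0.41 for Inha, 0.22 for Vasp, 0.34 for Mgat4b, 0.45 for Mospd1 and 0.20 for Sptbn1.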

How the data were processed

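Testis RNA of 16 libraries was analysed. The deposited values are a signal, gene counts that the authors divided by a size factor per library within each of 4 tables. Dividing by the worth of 1 read gave whole reads for 100% of values in the 20 columns (tolerance 0.01), and 0 columns were unmatched. The submitters' processing notes name Trim Galore, STAR, HTSeq, DESeq2 and GRCm39, with no versions. Both tables of a stage hold the same cKO libraries 1 and 2, which were counted once. Names, exon lengths and overlaps came from GENCODE M21, and 52081 of 55414 IDs matched.

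Within a table, limma 3.58.1 (R 4.3.3, lmFit, eBayes with trend) was run on log2(value + 1) for genes reaching 10 in 2 or more libraries, which understates the change of low genes. Comparisons across stages used log2 CPM (TMM, prior count 1) of recovered reads. Genes with a Benjamini-Hochberg adjusted p under 0.05 over all genes are termed called. The scripts were tested on simulated data. Alternatives were edgeR 4.0.16 and DESeq2 1.42.0 on recovered reads, pseudocounts of 0.1 and 10, other filters and scaling, a kit covariate, a block on replicate number, eBayes with no trend and leaving out each library. The interaction in the second kit and the fits with the sequencing run as a covariate were chosen after seeing the data.

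The members, the pathway and marker lists and the rule for naming were chosen with earlier results of these data known. All members are named, with up to 3 called genes per pathway list with the largest change and the 2 genes most like each member called at P16; other genes named were chosen after their values were seen.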

Additional observations from a re-analysis of the deposited data

Results flagged for a closer look

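The cKO effect on Bcl2l1 differed between the stages by a test of the difference itself. Over the 8 libraries of the first kit the effect at P16 minus that at P14 was -0.49 on the log2 scale (SE 0.081, limma adjusted p 0.00962), with the P16 cKO libraries below both P16 controls in 2 of 2 cases. The share of all genes so separated was not counted. The loss of Ythdc2 differed too, at -0.72 (limma adjusted p 0.00822). Stage cannot be told apart from the depth of that loss or from time since tamoxifen. In the 10 outlier checks of the 4 Cre control P16 libraries, 1 per member, no value passed the limit. Each check took 1 member alone, and with 4 libraries only a value far from the rest can pass. Cre control library 1, on another run than the other Cre controls of P16, stood at 522 for Bok (others 667 to 739). It stood at 503 for Bcl2l11 (others 653 to 702) and at 2827 for Bcl2l1, the highest (others 2562 to 2785).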

How the results depend on the processing

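No called result changed sign under any alternative. Of 1140 values of single members under alternatives, 1075 kept their side of the threshold, 31 passed it newly and 34 no longer passed. Among the 1075, 57 took the other sign, called neither as reported nor under that alternative. In cKO against control at P16 the members called higher (3) became 0 with eBayes without trend and 0 with all libraries of the stage and the kit as a covariate, and ranged from 1 to 4 with each library left out. The 1 lower member remained under every alternative there. Genes called over all genes in that comparison ranged from 1806 to 8200. They were 1806 of 17986 with eBayes without trend, and 2701 of 19932 with all libraries of the stage and the kit as a covariate. In cKO against Cre control at P16, members called higher (0) became 2 with DESeq2 (Bcl2l2 and Mcl1) and 0 to 3 with a library left out, and members called lower (1) became 0 with eBayes without trend, 0 with the replicate block, 0 with the kit as a covariate, 0 with the sequencing run as a covariate and 0 to 4 with a library left out. The 3 and 4 came without the third cKO library, where kit and genotype cannot be told apart. That fit called 9427 of 19046 genes. Over all genes, DESeq2 called 4140 of 19200 and eBayes without trend 32. The replicate block called 0 of 19051, the kit covariate 1 of 19200 and the run covariate 0. At P14 against Cre control, members called higher (0) became 3 and lower (0) became 1 under the replicate block. They became 0 to 3 and 0 to 1 with a library left out. The 3 and the 1 again came without the third cKO library, which the block drops at P14. Kit and genotype cannot be told apart there. Over all 17924 genes tested, the block called 6940, and leaving out that library alone called 6256. In the interaction, leaving out a library gave 0 to 1 higher and 0 to 1 lower, and the second kit gave 0 lower, also with the run as a covariate. The run fits were added after seeing the data, and at P16 against Cre control the genotype term then rests on the third cKO library and Cre control library 1.

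From P14 to P16 in controls, members called lower (0) became 1 with DESeq2 size factors, 1 with the replicate block and 0 to 2 with a library left out. In cKO the 1 lower became 2 with DESeq2 size factors, edgeR, a prior count of 5 or the replicate block, and 0 to 2 with a library left out. In Cre controls the 1 higher became 0 with the replicate block and 0 to 1 with a library left out, and the lower (0) became 1 with the run as a covariate. Over all 18581 genes, DESeq2 size factors called 3810 in controls and the block 4513. In cKO, DESeq2 size factors, edgeR, the prior count of 5 and the block called 5584 to 6156 of 18581. In Cre controls the block called 1687 of 18061 and the run fit 1888 of 18819. The stage term of that run fit rests on P16 library 1 and the P14 libraries. The causes of these changes were not tested. Same-numbered libraries had correlated deviations of 0.203 at P14 and 0.0798 at P16 between cKO and control, and of -0.233 to 0.304 in the tables with Cre controls, so the numbers were not shown to pair the samples, and the block is given here alone. It changed the counts named above. Where leaving out a library left a group with 1, that library was assumed to vary like the others. Lengths of the longest transcript raised the level of Bcl2l1 with the first kit from 18.8 to 33.5 RPKM and left that of Mcl1 as it was. Depth limits Bcl2 and Bbc3 most, whose lowest libraries held 101 and 71 reads.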

Other observations

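From P14 to P16 in controls 6 of 42 other apoptosis genes tested rose and 4 fell, beside 20% of all genes called. In cKO 8 rose and 6 fell, beside 29.8%, and in Cre controls 5 of 43 rose and 2 fell, beside 11.8%. Cyct, the testis form of cytochrome c, rose in each group, with log2 changes of 0.92 in controls, 1.104 in cKO and 1.27 in Cre controls (limma adjusted p 0.00297, 0.000732 and 0.00191). Bcl2l12 rose by 0.44, 0.70 and 0.57 and Bad, a BH3-only gene that overlaps Gpr137 on the other strand, by 0.30, 0.26 and 0.62 in the same order. Hrk rose by 0.76 in controls (SE 0.173, limma adjusted p 0.0126) and was not called in the other groups.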
